A study of Mus musculus with 12 samples.

Results

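Complex I, the NADH:ubiquinone oxidoreductase of mitochondria, was followed through the transcripts of its nuclear subunits in mouse quadriceps muscle. Its genes were taken as all those whose array annotation symbol starts with Nduf followed by a, b, c, s or v, leaving out the Ndufaf assembly factors. This gave 36 genes with a probe set of their own, of which 35 lay above the filter on low signal, among 12771 genes tested. Each gene was read from its brightest probe set. Ndufb4 lay below the filter, with a mean signal of 24.96 where the filter stood at 28.2. Ndufa11, Ndufs6 and 6 related copies or pseudogenes lie only on probe sets shared by several genes and were not analysed here, nor were the subunits encoded in mitochondrial DNA.

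The study compared 4 groups of C57Bl/6J mice that received treatment for 6 days: AICAR (250 mg/kg/day), GW1516 (a dose of 5 mg/kg/day), the combination of both at these doses, or vehicle. AICAR is an adenosine analogue that activates AMP-activated protein kinase, an energy sensor, while GW1516 is a small molecule that activates PPARδ, a nuclear receptor for fatty acids. Each group had 3 arrays, and each array held total RNA pooled from 3 mice, so 1 value is already an average over animals. The labels do not say whether pools of a group shared mice, and p-values therefore measure the spread between these pools, which may be in part technical. Sex and age were not given in the sources used here.

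Complex I is the entry point of electrons from NADH into the respiratory chain and pumps protons across the inner mitochondrial membrane. Its N module oxidises NADH, its Q module passes the electrons to ubiquinone, and its membrane arm moves the protons. Core subunits do the chemistry, and some of them carry the cofactors, while accessory subunits surround and stabilise the core. Skeletal muscle holds many mitochondria, and agents that act on AMP-activated protein kinase or PPARδ are widely studied for their effects on oxidative genes there. The tested genes comprised 9 of the N module, 5 of the Q module and 19 of the membrane arm. The remaining 2, Ndufa4 and its paralogue Ndufa4l2, carry the family name but are now assigned outside complex I, Ndufa4 to cytochrome c oxidase.

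Measures of RNA quality were close to each other, while the median signal differed by group. The median signal per array was 45.4 to 54.2 over all probe sets after scaling by the authors to a trimmed mean of 200. With AICAR it was 52.0 to 54.2 and with the combination 50.6 to 51.9. All these arrays lay above those of vehicle, 48.0 to 49.8, and of GW1516, 45.4 to 49.1. Log2 signals of any pair of arrays correlated at 0.947 to 0.968 over the genes tested. The ratio of 3' to 5' signal, a measure of intact RNA, lay between 0.802 and 0.880 for the Gapdh control and between 0.782 and 0.936 for the Actb control. All 12 skeletal muscle markers listed, such as Ckm and Acta1, were among the genes tested, and their summed signal was 248982 to 315475 per array. GW1516 replicate 2 stood apart from the other arrays, as described for the GW1516 comparison. Most group medians, counts and named differences that rest on this array are followed by values without it.

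RefSeq promoter windows of the GRCm38.p6 build, 250 bases before to 50 bases after the annotated start, were found for 31 of the 35 genes. The 35 genes lie on 15 chromosomes, 2 of them on X, so they do not share a locus. The stretches below are the 250 bases before the start site of the window used for Ndufa3, Ndufb5, Ndufs8 and Ndufa8. The annotated gene spans of Ndufa3 and Ndufb5 begin within their stretches, at chr7:3617347 and chr3:32737057. Ndufa3, Ndufb5 and Ndufs8 were among the 8 of the 35 with the smallest p in the limma F test across the 4 groups (unadjusted, 0.0371, 0.0440 and 0.140). Ndufa8 had the most negative difference between AICAR and vehicle. The stretches are written 5′ to 3′ on the strand of the gene, and capitals mark a match to a motif searched. The Ndufa3 stretch (chr7:3617123-3617372, plus strand) and the Ndufb5 stretch (chr3:32736813-32737062, plus strand) held no match. The Ndufs8 stretch (chr19:3912775-3913024, minus strand) held the CCAAT box 3 times, and the Ndufa8 stretch (chr2:36049339-36049588, minus strand) held 2 matches to the NRF1 motif, 1 on each strand.
Ndufa3: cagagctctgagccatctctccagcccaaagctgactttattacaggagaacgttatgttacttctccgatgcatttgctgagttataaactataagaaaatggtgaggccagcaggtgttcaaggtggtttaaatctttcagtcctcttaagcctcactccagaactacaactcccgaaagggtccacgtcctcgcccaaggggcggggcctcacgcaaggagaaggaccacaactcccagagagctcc
Ndufb5: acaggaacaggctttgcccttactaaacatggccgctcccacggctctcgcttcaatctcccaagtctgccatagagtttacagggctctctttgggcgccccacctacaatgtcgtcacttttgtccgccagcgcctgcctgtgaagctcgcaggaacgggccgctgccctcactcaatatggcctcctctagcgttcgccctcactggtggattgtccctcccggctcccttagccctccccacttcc
Ndufs8: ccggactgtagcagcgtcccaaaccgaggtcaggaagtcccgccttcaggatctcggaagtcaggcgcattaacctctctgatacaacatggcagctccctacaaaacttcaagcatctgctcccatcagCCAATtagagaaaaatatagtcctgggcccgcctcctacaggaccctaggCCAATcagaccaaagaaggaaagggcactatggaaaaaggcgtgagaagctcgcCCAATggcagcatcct
Ndufa8: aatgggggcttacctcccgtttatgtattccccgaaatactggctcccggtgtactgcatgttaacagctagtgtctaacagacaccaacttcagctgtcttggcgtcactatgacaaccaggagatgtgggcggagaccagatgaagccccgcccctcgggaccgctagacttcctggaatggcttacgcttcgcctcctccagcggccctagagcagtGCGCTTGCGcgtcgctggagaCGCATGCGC
5 motifs were searched on both strands of the whole window, and no matches in these 4 stretches overlap. The NRF1 motif, searched as CGCANGCGC, is bound by a factor known for driving respiratory chain genes. A gene was counted once if any of its windows matched. The NRF1 motif was present for 6 of the 31 genes, Ndufa5, Ndufa6, Ndufa8, Ndufa12, Ndufb10 and Ndufs5. This is 19.4%, against 7.12% of all 27025 genes with a window. The ETS motif, CCGGAAG, was present for 4 genes (12.9%, against 9.93%), namely Ndufb6, Ndufb7, Ndufs3 and Ndufs8, in the last of which it lies after the start. The YY1 motif, ANATGGCGG, was present for 4 genes, Ndufa1, Ndufa9, Ndufs4 and Ndufs7 (12.9%, against 2.19%). The CCAAT box was present for 8 genes (25.8%, against 41.1%), and the ERR motif, TNAAGGTCA, for 0, against 1.43% of all genes with a window. A match is a description of letters and not of binding, and none of these shares was tested.

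Transcripts of complex I were abundant in all 4 groups. The brightest probe sets of 33 of the 35 genes ranked at or above the 96.5th percentile of the genes tested, with mean signals of 3873 to 10974. Ndufb9, a membrane arm subunit and the brightest, had signals of 11290, 11240 and 10434 on AICAR arrays, 12011, 8870 and 9785 on GW1516 arrays, 11309, 11066 and 13271 on combination arrays, and 10819, 10994 and 11185 on vehicle arrays. Its groups overlapped. The dimmest, Ndufb1, also of the membrane arm, had 165, 165 and 253 on AICAR arrays, 140, 199 and 196 on GW1516 arrays, 182, 187 and 222 on combination arrays, and 182, 211 and 220 on vehicle arrays. These also overlapped. The residual standard deviation had a median of 0.12 on the log2 scale over the 35 genes and 0.23 over all genes, and the median standard error of a difference was 0.094, against 0.19.

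No complex I gene passed the test in any of the 9 comparisons or in the F test across the 4 groups (limma, adjusted p under 0.05 over all 12771 genes). In the F test 0 of 35 were called, where 0.11% of all genes were, and 10.4% of all genes had an unadjusted p under 0.05. Ndufa4l2 had the smallest F test p, 0.0240 (adjusted p = 0.415), followed by Ndufa3 at 0.0371 (0.449), Ndufs1 at 0.0414 (0.464) and Ndufb5 at 0.0440 (0.467). The differences below are therefore measured values that do not exceed the spread between pools after adjustment.

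**Figure D1:**
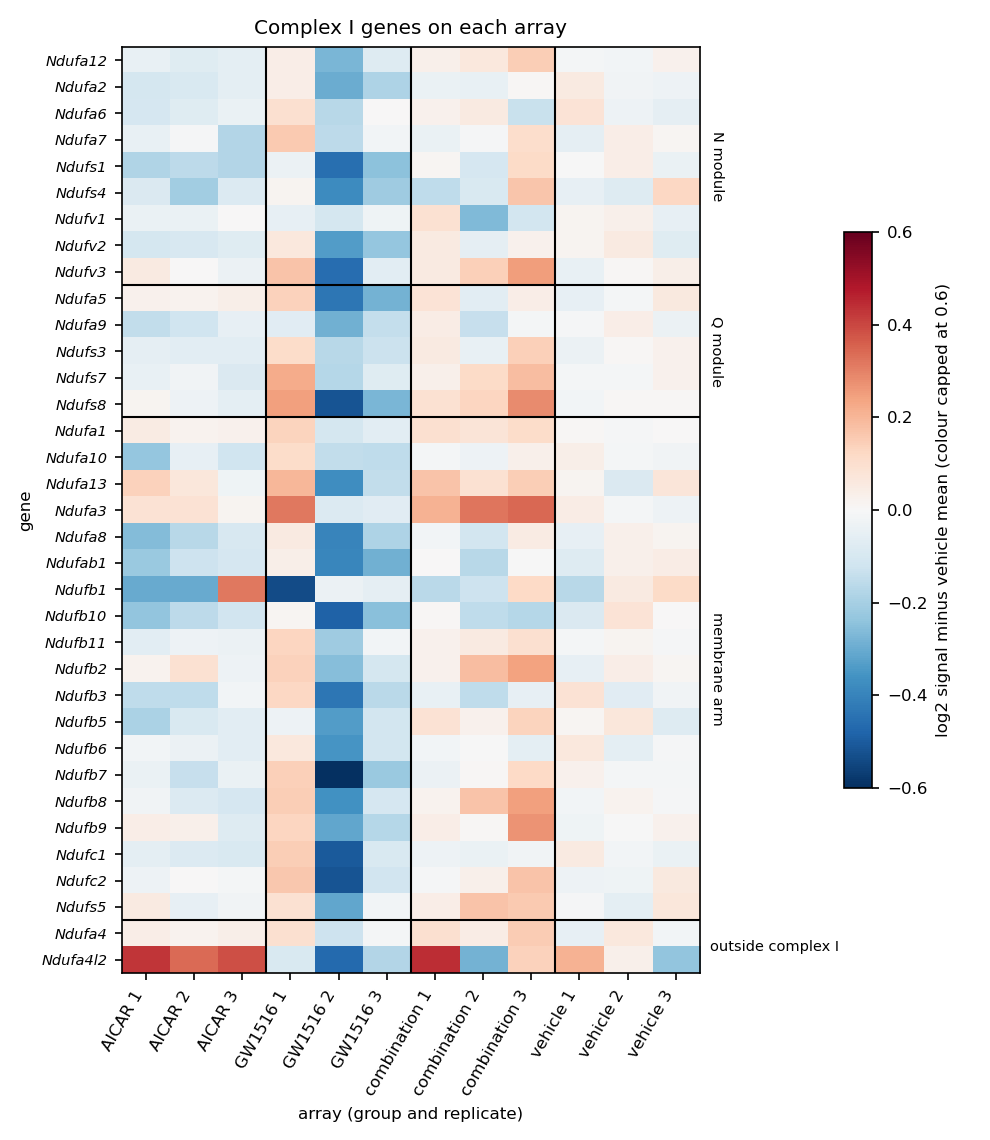
Log2 signal of the 35 complex I genes (rows, by module) on the 12 arrays (columns, AICAR, GW1516, combination and vehicle), as the difference from the vehicle mean of each gene, with the colour capped at 0.6. GW1516 replicate 2 is low in nearly all rows, with a median difference of -0.33, while GW1516 replicate 1 is mostly high, with a median of 0.11.

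With AICAR alone, most complex I transcripts lay slightly below vehicle, and none was called. The median difference over the 35 genes was -0.06 on the log2 scale, 27 genes lay below vehicle and 8 above, and the median over all genes was 0.01 with 48.0% below (0.00783% of all genes were called). All modules shared this side: 8 of 9 genes of the N module, 4 of 5 of the Q module and 15 of 19 of the membrane arm lay below vehicle. For 16 genes all 3 AICAR arrays lay below all 3 vehicle arrays, where 9.03% of all genes did so. Their differences of group means were -0.17 to -0.04 on the log2 scale. The arrays themselves could lie closer, as for Ndufv2, with 9039 as the highest AICAR signal and 9047 as the lowest vehicle signal. The 16 were Ndufa2, Ndufa8, Ndufa9, Ndufa10, Ndufa12, Ndufab1, Ndufb7, Ndufb8, Ndufb10, Ndufb11, Ndufc1, Ndufs1, Ndufs3, Ndufs4, Ndufs7 and Ndufv2, which span every module. For 2 genes, Ndufa1 and Ndufa4l2, all AICAR arrays lay above vehicle, against 9.30% of all genes. The number of genes below vehicle, 16, moved with the scaling: it was 3 after quantile normalization and 30 after median centring, which moved the median of all genes by -0.12 in this comparison. The summed signal of skeletal muscle markers was 262363 to 268236 on AICAR arrays against 248982 to 259777 on vehicle arrays, and its part in these values was not tested.

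Ndufs1, the core subunit of the N module with most of its iron-sulphur clusters, had signals of 4927, 5016 and 4951 with AICAR against 5587, 5752 and 5433 with vehicle. The groups did not overlap, and the difference was -0.17 ± 0.094 (SE, n = 3 against 3 arrays, limma adjusted p = 0.754). Ndufa8, a membrane arm subunit facing the intermembrane space, differed most in this direction, with 4793, 5107 and 5367 with AICAR against 5548, 5867 and 5797 with vehicle, a difference of -0.17 ± 0.098 (adjusted p = 0.755). Ndufb10, another membrane arm subunit, had 4502, 4761 and 4898 with AICAR against 5008, 5624 and 5317 with vehicle, also without overlap. Ndufs3 of the Q module, whose protein is among the earliest in assembly, had 7951, 7891 and 7909 with AICAR against 8065, 8292 and 8408 with vehicle, a difference of -0.06 ± 0.080. The 3 AICAR arrays were close to each other for Ndufs1 and Ndufs3, with SDs of 0.013 and 0.0056 on the log2 scale. They lay wider apart for Ndufb10 (0.062) and Ndufa8 (0.082). The median SD within the group was 0.042 on the log2 scale over the 35 genes, against 0.046 within vehicle.

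Ndufa4l2, a paralogue of Ndufa4 known in other settings as a gene induced by hypoxia, lay on the other side of vehicle, with the largest size. Its signals were 317, 298 and 308 with AICAR against 272, 240 and 200 with vehicle, so that all 3 AICAR arrays were higher. The difference was 0.39 ± 0.18 (limma, unadjusted p = 0.0482, adjusted p = 0.720). It was the 1 complex I family gene with an unadjusted p under 0.05, which 6.93% of all genes had. Ndufa4 itself had 9582, 9444 and 9559 with AICAR against 8997, 9744 and 9217 with vehicle, with overlapping groups and a difference of 0.03 ± 0.071.

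With GW1516 alone, 34 of 35 genes had a mean below vehicle, but the 3 arrays of the group disagreed and none was called. The median difference was -0.13 on the log2 scale, against -0.01 over all genes, of which 52.9% lay below vehicle (0.0940% of all genes were called). The gene above vehicle was Ndufa3, at 0.05 ± 0.095, and at 0.12 without GW1516 replicate 2. An unadjusted p under 0.05 was reached by 4 genes, all lower, Ndufs1, Ndufb10, Ndufa9 and Ndufab1, where 9.64% of all genes reached it and 5.16% were lower. It was reached by 0 of the 35 without GW1516 replicate 2, against 6.91% of all genes. For 1 gene, Ndufa9, all GW1516 arrays lay below vehicle, against 7.91% of all genes.

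The 3 GW1516 arrays lay far apart. Relative to the vehicle mean, the median over the 35 genes was 0.11 on replicate 1, -0.33 on replicate 2 and -0.12 on replicate 3, while every AICAR, combination and vehicle array lay between -0.06 and 0.12. Of the 35 genes, 6 lay below the vehicle mean on replicate 1, 35 on replicate 2 and 34 on replicate 3. Replicate 2 gave the lowest of all 12 signals for 31 genes, against 19.8% of all genes, and the exceptions were Ndufa7, Ndufa10, Ndufb1 and Ndufv1. After median centring it did so for 14 genes. For 24 genes replicate 1 lay above all vehicle arrays while replicate 2 lay below them all, as for 8.80% of all genes. The median SD within the GW1516 group was 0.21 on the log2 scale, against 0.046 in vehicle, and 32 of 35 genes had their largest SD there, against 38.6% of all genes.

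**Figure D2:**
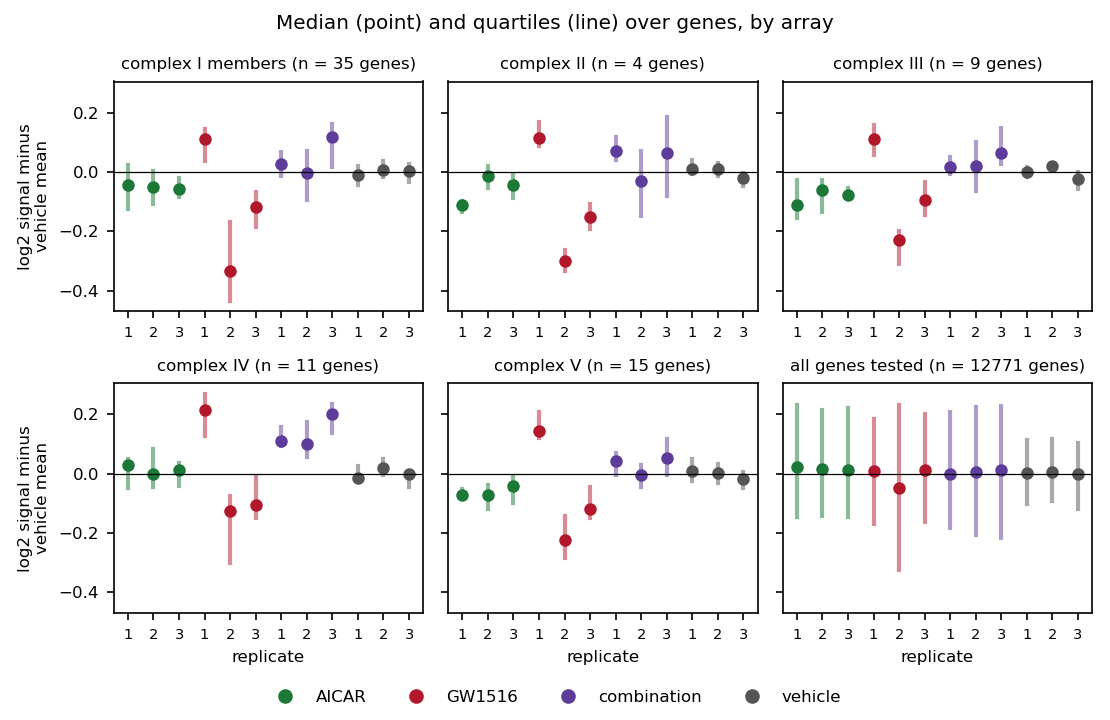
Median (point) and quartiles (line) over genes of the log2 difference from the vehicle mean on each array, for complexes I to V and all genes tested. For complex I the GW1516 arrays stand at 0.11, -0.33 and -0.12, and the 3 vehicle arrays lie between -0.01 and 0.01.

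Other gene lists also stood apart on GW1516 replicate 2. Its fibroblast and matrix markers had a median of -1.16 on the log2 scale relative to vehicle, with 14 of 14 below the vehicle mean, and their summed signal was 18239 to 38872 on GW1516 arrays against 33692 to 44149 on vehicle arrays. The macrophage markers had a median of -0.64 there, with 9 of 10 below the vehicle mean and summed signals of 1630 to 2803 on GW1516 arrays against 2292 to 3012 on vehicle arrays. Genes of the atrophy programme, ubiquitin ligases and FOXO targets, had a median of 1.02 there, with 0 of 15 below the vehicle mean, and summed to 20322 to 55015 on GW1516 arrays against 18580 to 19816 on vehicle arrays. Skeletal muscle markers had a median of -0.02 on replicate 2 and 0.33 on replicate 1. The RNA ratios of replicate 2, 0.863 for Gapdh and 0.839 for Actb, lay within the range of the other arrays. The part of these lists in the complex I values was not tested, and in pooled tissue fewer cells of a type and less RNA per cell cannot be told apart.

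Without GW1516 replicate 2 the median difference from vehicle was -0.02, with 21 genes below and 14 above. Ndufs1 had signals of 5460, 4079 and 4719 with GW1516 against 5587, 5752 and 5433 with vehicle, a difference of -0.24 ± 0.094 (limma adjusted p = 0.476) that was -0.14 without replicate 2. Its groups overlapped through replicate 1. Ndufb10 had 5351, 3792 and 4462 with GW1516 against 5008, 5624 and 5317 with vehicle, a difference of -0.24 ± 0.11 that was -0.12 without replicate 2. Ndufa9, a Q module subunit near the joint of the arms, had 4523, 3884 and 4301 with GW1516 against 4720, 4882 and 4634 with vehicle, which did not overlap. Its difference was -0.17 ± 0.076 (adjusted p = 0.515), and -0.11 without replicate 2. Ndufa4l2 had the most negative difference, -0.25 ± 0.18, with 221, 170 and 208 with GW1516 against 272, 240 and 200 with vehicle, and overlapping groups. Without replicate 2 it was -0.13, and Ndufb1 was the most negative, at -0.30.

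The core subunits showed the same split. Ndufs8, a Q module subunit that carries iron-sulphur clusters, had 6820, 4014 and 4752 with GW1516, a range that held all 3 vehicle signals of 5681, 5781 and 5787. Ndufv2, an iron-sulphur subunit of the N module, had 9930, 7553 and 8105 with GW1516 against 9634, 9880 and 9047 with vehicle. Ndufs7, which carries the last iron-sulphur cluster before ubiquinone, had 9947, 7554 and 8092 with GW1516 against 8435, 8436 and 8671 with vehicle. Ndufv1, which binds NADH and flavin mononucleotide, was an exception and varied little, with 5487, 5284 and 5582 with GW1516 against 5757, 5813 and 5491 with vehicle. Its lowest signal of all was 4738 on combination replicate 2.

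With the combination, complex I transcripts lay on both sides of vehicle, and none was called. The median difference was 0.03 on the log2 scale, 22 genes lay above vehicle and 13 below, and the median over all genes was -0.00, with 49.1% above (0.258% of all genes were called). For 8 genes all combination arrays lay above all vehicle arrays, against 8.90% of all genes: Ndufa1, Ndufa3, Ndufa12, Ndufa13, Ndufb11, Ndufs7, Ndufs8 and Ndufv3. The number was 4 after quantile normalization and 1 after median centring, under which the median of the 35 genes turned to -0.05. The summed signal of skeletal muscle markers was 282877 to 287111 on combination arrays against 248982 to 259777 on vehicle arrays, without overlap, and its part in these values was likewise not tested.

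Ndufa3, a small membrane arm subunit, differed most from vehicle. Its signals were 8650, 9361 and 9502 with the combination against 7713, 7425 and 7315 with vehicle, and the groups did not overlap. The difference was 0.29 ± 0.095 (limma, unadjusted p = 0.00821, adjusted p = 0.269), the 1 gene of the 35 with an unadjusted p under 0.05, which 10.9% of all genes had. With AICAR it had 7939, 7935 and 7576, and with GW1516 9315, 7067 and 7134, so the single GW1516 replicate 1 reached the level of the combination. Ndufb8, of the far end of the membrane arm, had 10592, 11763 and 12400 with the combination against 10335, 10603 and 10415 with vehicle, a difference of 0.15 ± 0.11 with overlap. Ndufb10 lay lowest, with 5335, 4784 and 4714 with the combination against 5008, 5624 and 5317 with vehicle, a difference of -0.11 ± 0.11. Ndufa4 had 9952, 9609 and 10343 with the combination, and Ndufa4l2 had 320, 193 and 259, both overlapping vehicle.

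**Figure D3:**
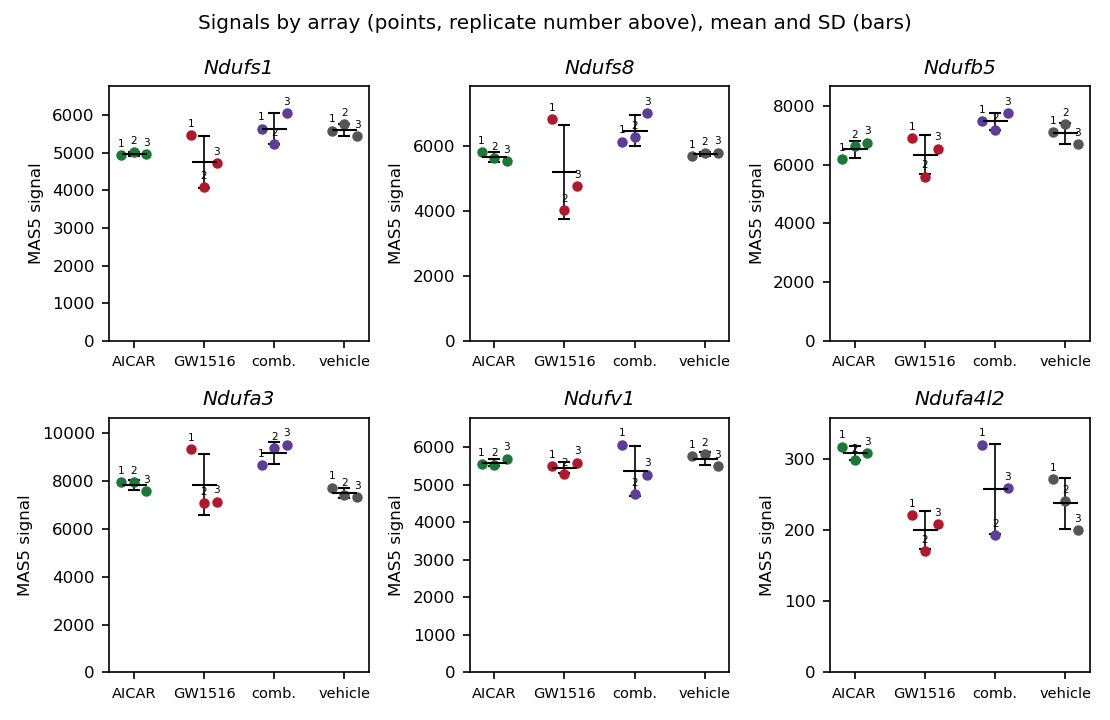
MAS5 signal (linear axis from 0) of 6 named genes on each array (points, with the replicate number above), with the mean and SD of each group as bars, for AICAR, GW1516, combination (comb.) and vehicle. In Ndufs1, Ndufs8, Ndufb5 and Ndufa3 the GW1516 points lie widest apart, as in Ndufs8 with 6820, 4014 and 4752, while in Ndufv1 and Ndufa4l2 the combination points do.

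The direct comparisons share arrays with those above and are not independent of them. Between combination and AICAR, 32 of 35 genes were higher in the combination, where 46.9% of all genes were, with a median of 0.10 on the log2 scale, and 0 were called (0.0313% of all genes). For 17 genes every combination array lay above every AICAR array, against 6.80% of all genes, and 11 of these 17 were among the 16 below vehicle with AICAR. Ndufb5, a membrane arm subunit, had 7486, 7185 and 7745 with the combination against 6177, 6620 and 6746 with AICAR, a difference of 0.20 ± 0.083 (limma, unadjusted p = 0.0318, adjusted p = 0.666). Its other probe set stood at -0.11 with the combination and -0.17 with AICAR relative to vehicle, against 0.08 and -0.12 on the chosen one. Ndufb5 was 1 of 2 genes with an unadjusted p under 0.05, with Ndufa3, where 7.32% of all genes reached it. Without GW1516 replicate 2, which also enters the shared estimate of the spread, 6 genes reached it, against 9.68% of all genes, and 4 did so for AICAR against vehicle, against 9.35%. The number of 17 became 3 after quantile normalization.

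Between combination and GW1516, 34 of 35 genes were higher in the combination, with a median of 0.16, where 52.1% of all genes were higher. None was called (0% of all genes), but 11 had an unadjusted p under 0.05, all higher, where 10.4% of all genes reached it and 5.15% were higher. They were Ndufb5, Ndufs1, Ndufs8, Ndufa3, Ndufb2, Ndufb8, Ndufa12, Ndufv3, Ndufb9, Ndufs5 and Ndufa13. Ndufb5 was the 1 gene of the 35 with every combination array above every GW1516 array (6.77% of all genes), with 7486, 7185 and 7745 with the combination against 6897, 5589 and 6537 with GW1516. Its difference was 0.24 ± 0.083 (limma adjusted p = 0.364), and 0.15 without GW1516 replicate 2. Ndufs8 had 6134, 6276 and 7002 with the combination against the GW1516 values above, a difference of 0.35 ± 0.14 (adjusted p = 0.415), and 0.18 without replicate 2.

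These values moved with the scaling and with single GW1516 arrays. After median centring the median between combination and GW1516 was 0.05, with 25 genes above 0, and the centring moved the median of all genes by -0.11. Without replicate 2 the median was 0.07, with 29 genes above 0 and 1 gene, Ndufb5, at an unadjusted p under 0.05, against 8.64% of all genes. Without replicate 1 it was 0.27, and Ndufs8 alone was then called, at 0.56 (limma adjusted p = 0.026). That call was on its brightest probe set. With all arrays, a dimmer probe set of Ndufs8 lay lower with the combination than with GW1516, at -0.40 against -0.23 relative to vehicle. Its other probe sets lay higher with the combination than with GW1516. Ndufb2, a membrane arm subunit, had 7106, 7934 and 8257 with the combination against 7684, 5840 and 6479 with GW1516, a difference of 0.23 ± 0.094, or 0.14 without replicate 2. Ndufa12, an N module subunit, had 9446, 9659 and 10258 with the combination against 9508, 7640 and 8777 with GW1516, a difference of 0.19 ± 0.079, or 0.10 without replicate 2.

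Between AICAR and GW1516, 30 of 35 genes were higher with AICAR, at a median of 0.07, where 55.7% of all genes were higher and 0% were called. Without GW1516 replicate 2 the median was -0.03, with 7 of 35 above 0, and after median centring it was -0.09. Ndufa4l2 was the 1 gene with an unadjusted p under 0.05, which 9.15% of all genes had, with 317, 298 and 308 with AICAR against 221, 170 and 208 with GW1516. It was also the 1 gene with all AICAR arrays higher (8.15% of all genes), by 0.63 ± 0.18 (limma, unadjusted p = 0.00325, adjusted p = 0.343). This difference was 0.52 without GW1516 replicate 2.

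The interaction asks whether the drugs together differ from the sum of each, and takes AICAR and GW1516 from the combination and adds vehicle. It was above 0 for 33 of 35 genes, with a median of 0.20 on the log2 scale, where 49.5% of all genes lay above 0. None was called (0% of all genes), and 7 had an unadjusted p under 0.05, against 6.64% of all genes: Ndufs1, Ndufb5, Ndufa8, Ndufab1, Ndufa9, Ndufa12 and Ndufb8. Ndufs1 had the smallest p, with an interaction of 0.42 ± 0.13 (limma, unadjusted p = 0.00666, adjusted p = 0.723). Without GW1516 replicate 2 the Ndufs1 value was 0.32 and the median was 0.11, with 33 of 35 above 0 and 2 genes, Ndufb5 and Ndufs1, at an unadjusted p under 0.05, against 6.33% of all genes. Averaged over the presence of the other drug, AICAR gave a median of 0.04 (-0.08 after median centring) with 28 genes above 0, against 52.5% of all genes (0.0313% called), and GW1516 gave -0.01 with 16 above 0, against 45.7% (0.149% called). In the first of these, Ndufa4l2 and Ndufa3 had an unadjusted p under 0.05 where 10.4% of all genes did, and in the second 0 did, against 9.51%. These numbers without GW1516 replicate 2 were 1, against 11.6%, and 3, against 9.40%.

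**Figure D4:**
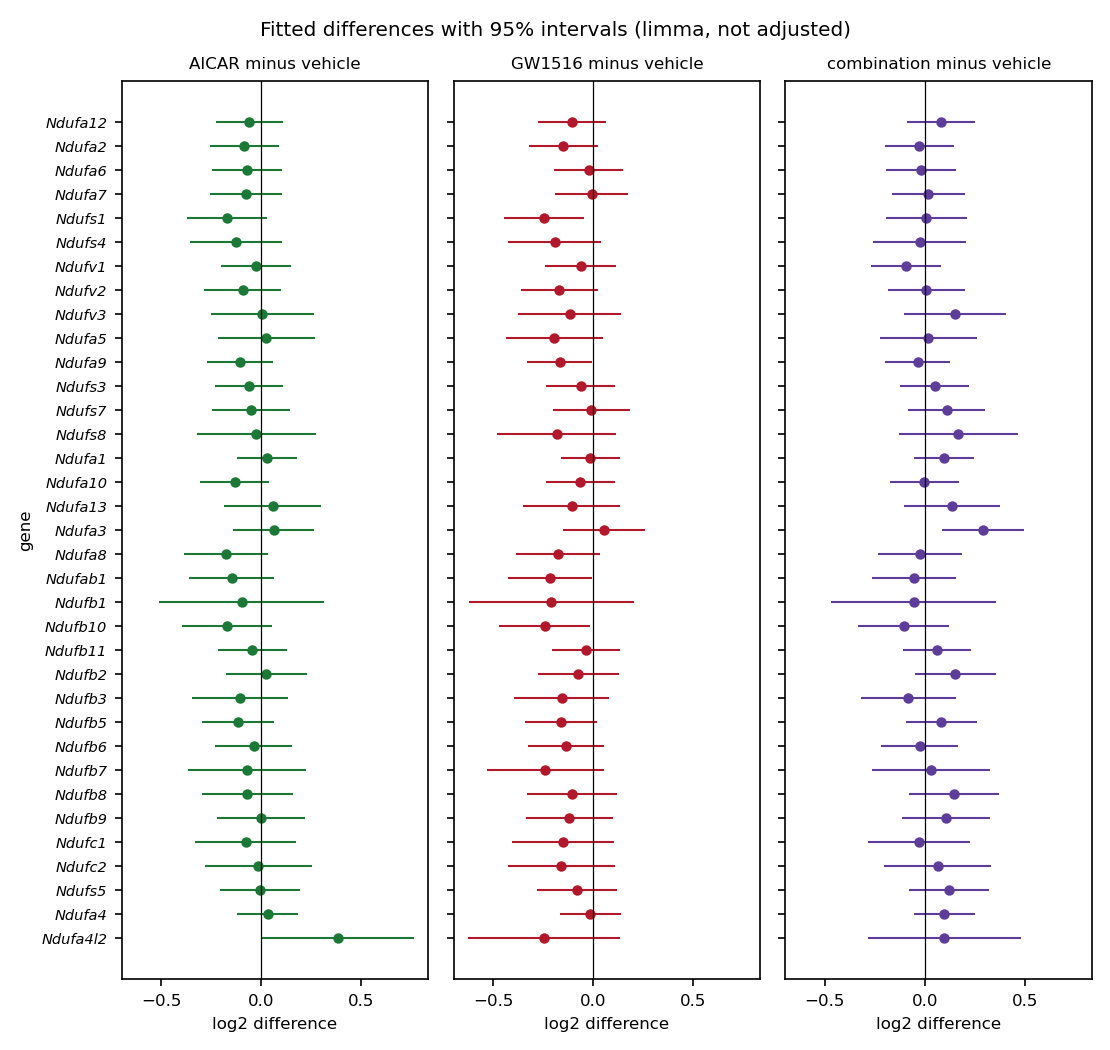
Log2 difference from vehicle of each complex I gene with AICAR, GW1516 and the combination, with 95% intervals (not adjusted for the number of genes), ordered by module. Of the intervals, 34, 31 and 34 of 35 cover 0 in turn, and the medians over the genes are -0.06, -0.13 and 0.03.

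The size of effect these arrays leave room for is bounded by those intervals. Leaving aside the dim Ndufa4l2 and Ndufb1, the 95% intervals of the other 33 genes reached from -0.40 to 0.30 on the log2 scale for AICAR, from -0.53 to 0.26 for GW1516 and from -0.33 to 0.50 for the combination, each against vehicle. A p that misses the threshold does not show that the groups are alike within these bounds.

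For 20 genes a choice between probe sets was made, since 39 further probe sets of theirs, each dimmer than the chosen one of its gene, also lay above the filter. For AICAR, 35 of these 39 lay below vehicle, and for 14 of the 20 genes all probe sets shared 1 sign. For GW1516, 32 of 39 lay below vehicle, and 15 of 20 genes had 1 sign. For the combination, 23 of 39 lay below and 16 above vehicle, and only 4 of 20 genes had 1 sign, with 9 genes whose other probe sets were all opposite to the chosen one. When all probe sets of a gene were averaged, the median of the 35 genes for the combination was -0.015. The 6 probe sets of Ndufs8 ran from -0.40 to 0.18 in that comparison, and the 3 of Ndufa3 stood at 0.29, 0.15 and -0.08. Low signals on GW1516 replicate 2 were also found outside the chosen probe sets, where 23 of the 39 had their lowest signal on that array, against 16.9% of all 27022 probe sets kept.

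**Figure D5:**
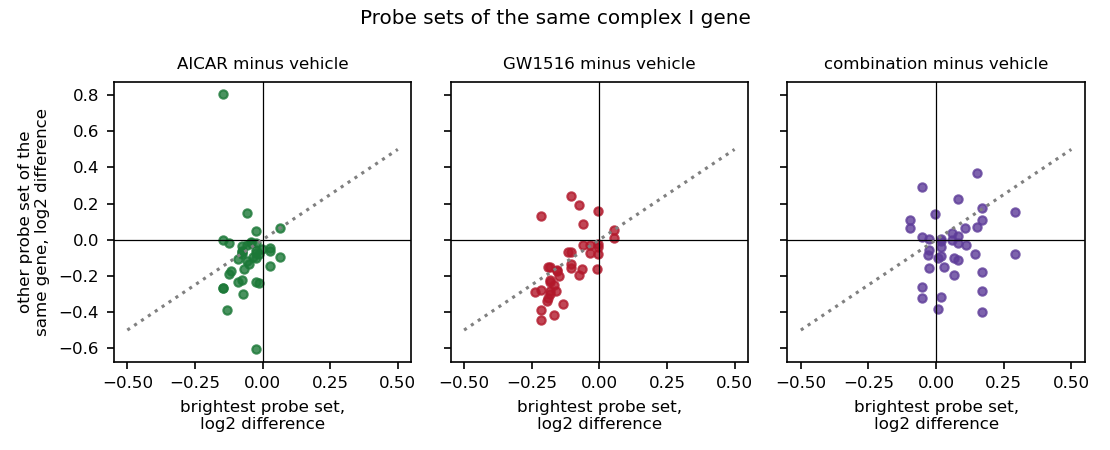
Log2 difference from vehicle of every probe set that passed the filter, for the 20 complex I genes with several, with AICAR, GW1516 and the combination. For the combination, 24 of the 39 other probe sets have the opposite sign to the chosen one.

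The other complexes of the respiratory chain were read from the same arrays. On the GW1516 arrays the medians relative to vehicle were 0.12, -0.30 and -0.15 for complex II, 0.11, -0.23 and -0.10 for complex III, 0.22, -0.13 and -0.10 for complex IV and 0.14, -0.22 and -0.12 for complex V. The 17 assembly factors tested, which build complex I without staying in it, had medians of 0.00, -0.30 and -0.11. By limma 0 genes of these lists were called in any comparison with vehicle, and an unadjusted p under 0.05 was reached by 3 of the 56 with AICAR, 3 with GW1516 and 2 with the combination, against 6.93%, 9.64% and 10.9% of all genes. They were 8, 2 and 6 without GW1516 replicate 2, against 9.35%, 6.91% and 14.0% of all genes. The smallest p among the assembly factors was that of Ndufaf1, which helps to assemble the membrane arm, with 742, 679 and 730 with GW1516 against 885, 1034 and 864 with vehicle, a difference of -0.37 ± 0.089 (limma adjusted p = 0.252), and -0.33 without GW1516 replicate 2. In complex IV, 8 of 11 genes had every combination array above vehicle, where 8.90% of all genes did. This count was not taken under the other scalings, which lowered the same count for complex I. Cox8a, a small structural subunit of complex IV, had 1143, 1225 and 1323 with the combination against 834, 780 and 810 with vehicle, a difference of 0.60 ± 0.15 (limma adjusted p = 0.153).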

How the data were processed

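Total RNA of quadriceps was hybridised to Affymetrix arrays, 3 per group. The deposited intensity values are MAS5 signals on a linear scale, per the submitters' processing notes, whose version is not given in the sources used here. From them, signals below 1 (3531 of 540444) were set to 1 and log2 was taken. Of 45101 probe sets, 64 controls were dropped, then the dimmest 40% by mean (signal under 28.2), which left 27022. An annotation dated 2016 gave 22714 of these 1 symbol, and the brightest stood for its gene.

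Differences came from limma 3.58.1 under R 4.3.3 (group means on 12 arrays, variance trend, 8 residual and 5.91 prior degrees of freedom), two-sided, with Benjamini-Hochberg adjustment over 12771 genes. Genes with per-array values were the 8 of smallest F test p, those with the largest differences from vehicle, the core subunits, Ndufa4, Ndufa4l2, the brightest and the dimmest. Ndufa9 was added after its values were seen. The members and lists were chosen with earlier results of these data known. The NRF1 and YY1 motifs were shortened by 1 letter after a first search. The code was tested on simulated data.

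The settings varied in turn were the scaling (quantile, or centred on the median), an added 32 before log2, the filter (none, or 60% left out), averaging all probe sets of a gene, the variance model, array weights, only the groups compared, a threshold of 0.10, the replicate number as a block and each array left out. Figures used matplotlib 3.10.9 in Python 3.11.15.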

Additional observations from a re-analysis of the deposited data

How the results depend on the processing

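The count of complex I genes called was 0 in every comparison under the alternatives run, except without GW1516 replicate 1, where 1 gene, Ndufs8, was called between combination and GW1516 (0.56, adjusted p = 0.026) and in the F test (adjusted p = 0.0454). Leaving out each array in turn thus gave 0 to 1 calls in those 2 tests and 0 in the others. The calls of Ndufs8 were on its brightest probe set, while its probe sets did not share 1 sign between combination and GW1516. Median centring moved the median complex I difference to -0.18 for AICAR against vehicle, to -0.087 for AICAR against GW1516 and to -0.075 for the mean AICAR effect, and it moved the median of all genes by -0.12, -0.15 and -0.12 in these comparisons. Between combination and GW1516 it gave 0.05. For GW1516 against vehicle the median ran from -0.23 without GW1516 replicate 1 to -0.018 without replicate 2. For AICAR against GW1516 it ran from -0.03 to 0.16, for the mean AICAR effect from -0.00 to 0.09 and for the mean GW1516 effect from -0.07 to 0.05. When all probe sets of a gene were averaged, Ndufb8 between combination and GW1516 reversed to -0.034, from 0.25 on its chosen probe set. Its other probe set was dim, with a mean signal of 50.2 against 10399 for the chosen probe set, and had equal weight in this average. Under the same averaging the genes with all combination arrays above vehicle were 4. The genes lowest on GW1516 replicate 2 were 14 after median centring. Counts of arrays above, below or lowest were added after seeing the data. The cause of these shifts was not tested.

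Residuals of same-numbered arrays correlated at -0.11 to 0.07 over the genes tested. Differently numbered arrays were not compared, so whether the replicate numbers pair the arrays was not settled. With the replicate block, 0 complex I genes were called in every comparison, and the median difference for GW1516 against vehicle was -0.13, since a block cannot move a difference between group means when each number occurs once in each group. With 3 arrays a group the number of arrays limits the precision.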

Other observations

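Of the 14 genes tested that govern mitochondrial biogenesis, 5 lay above vehicle with AICAR, 6 with GW1516 and 7 with the combination, at medians of -0.01, -0.09 and -0.01 on the log2 scale. By limma 0 were called, while 0, 3 and 3 had an unadjusted p under 0.05, against 6.93%, 9.64% and 10.9% of all genes. Without GW1516 replicate 2 the GW1516 median was -0.05, and 1, 0 and 5 had such a p, against 9.35%, 6.91% and 14.0% of all genes. Ppargc1a, the PGC-1α coactivator gene, differed by 0.21 ± 0.10 with AICAR (adjusted p = 0.730). Ppard, which encodes the receptor of GW1516, had 293, 412 and 280 with GW1516 against 254, 245 and 247 with vehicle, a difference of 0.38 ± 0.16 (adjusted p = 0.490), and 0.21 without GW1516 replicate 2. Gabpa, a subunit of an ETS factor known for respiratory chain genes, had signals of 278, 201 and 188 with the combination against 293, 313 and 276 with vehicle, a difference of -0.42 ± 0.15 (adjusted p = 0.324). Esrra, the nuclear receptor ERRα, had 721, 678 and 932 with the combination against 708, 452 and 644 with GW1516, a difference of 0.38 (adjusted p = 0.425), and 0.19 without GW1516 replicate 2.

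All 15 genes of complex V, the ATP synthase, lay below vehicle with AICAR, at a median of -0.06, and 0 were called by limma or had an unadjusted p under 0.05. Complexes II to V were not read under the other scalings. Atpif1, which encodes an inhibitor of the ATP synthase, had signals of 308, 162 and 254 with GW1516 against 444, 324 and 304 with vehicle, a difference of -0.60 ± 0.21 (limma adjusted p = 0.436), and -0.33 without GW1516 replicate 2. In complex III, 8 of 9 genes lay below vehicle with AICAR and 8 of 9 above it with the combination, while Uqcrh, its hinge subunit, differed by -0.26 ± 0.11 with the combination (adjusted p = 0.387). Adipocyte markers varied between arrays within groups, with medians relative to vehicle of -0.09, 1.01 and 1.63 on AICAR arrays, 0.58, 0.02 and 1.22 on GW1516 arrays and 1.06, 0.46 and -0.10 on combination arrays.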
